A study of Mus musculus with 6 samples.

Results

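Cells carrying MHC class II transcripts made up 223 of the 60671 filtered cells (0.368%) of a single-cell RNA-seq series on mouse bone marrow-derived T-cell progenitors. A cell was kept when it had at least 200 genes, at most 2000 UMIs (unique molecular identifiers, 1 per counted molecule) and at most 30% of its UMIs from mitochondrial genes. A kept cell was a member when the UMIs of H2-Aa, H2-Ab1 and H2-Eb1, the α and β chains of the classical class II molecules, summed to at least 2 and those of the neutrophil genes S100a8, S100a9 and Ngp summed to at most 1. Membership was thus set by measured values of the same cells, so differences between members and other cells are given as descriptions without a test.

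There were 6 sci-RNA-seq3 libraries, 1 for each combination of genotype and starting population. Each held 3 reverse-transcription wells, read from the barcodes. The sources used here do not say how cells were divided between wells, and the wells are treated as technical. Both genotypes were C57BL/6 mice with the mCitrine (YFP) reporter knocked into both copies of Bcl11b: Bcl11b YFP/YFP (WT) and Bcl11b YFPΔEnh/YFPΔEnh (ΔTE), in which the distal timing enhancer of Bcl11b is deleted on both copies. Progenitors from bone marrow of 6 to 8 mice per genotype, male and female and 2 to 4 months old, were pooled, cultured toward the T lineage, sorted without lineage-positive cells (including CD11b, CD11c, Gr-1 and B220) as DN1 (CD44+ CD25-), DN2a (CD44+ CD25+, Bcl11b negative) or DN2b (CD44+ CD25+, Bcl11b positive), and re-cultured for 4 days on OP9-DL1 cells, a mouse stromal line that expresses the Notch ligand DLL1, with IL-2, IL-7, IL-15, SCF and Flt3-L. Nuclear RNA was sequenced, and with 1 library per condition no difference between conditions has a replicate; all intervals below are 95% intervals that cover counting error only.

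MHC class II molecules carry peptides from endocytosed protein to CD4 T cells. Their genes are switched on by the coactivator CIITA, which joins a factor complex on a shared promoter module that ends in the Y box, bound by NF-Y. The invariant chain CD74 guides new class II molecules to endosomes, proteases such as cathepsin S trim it, and H2-DM loads the peptide. Dendritic cells, macrophages and B cells are the classical class II-positive cells, and early thymic progenitors are known to retain potential for dendritic and other myeloid fates.

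The promoters of the class II genes are shown because they share a motif that the selection rule did not use. RefSeq promoter windows (GRCm38.p6, 250 bases before to 50 after the start) were at hand for 14 of the 19 rule and pathway genes. The Y-box letters TGATTGG, searched on both strands, lay in 8 of these 14 genes, against 7.82% of all 32851 promoters of that length. In H2-Aa (chr17:34287857-34287933, minus strand) the motif began at position -50 from the start, in H2-Eb1 (chr17:34305746-34305822, plus strand) at -61, in H2-DMb1 (chr17:34153068-34153144, plus strand) at -63 and in H2-DMb2 (chr17:34145097-34145173, plus strand) at -92, with the motif in capitals in each.
H2-Aa: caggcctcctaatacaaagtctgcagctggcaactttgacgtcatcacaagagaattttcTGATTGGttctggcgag
H2-Eb1: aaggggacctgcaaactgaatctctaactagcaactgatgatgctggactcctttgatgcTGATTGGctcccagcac
H2-DMb1: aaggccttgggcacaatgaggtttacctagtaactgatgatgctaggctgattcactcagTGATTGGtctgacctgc
H2-DMb2: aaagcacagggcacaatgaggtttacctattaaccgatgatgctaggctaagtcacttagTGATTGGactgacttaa

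The same letters lay upstream of H2-Eb2, H2-Oa and H2-Ob and, on the opposite strand, in the promoter of Rfx5. They were not matched in H2-DMa, Ctss, Ctsz, Lgmn, Ifi30 or Rfxank, which says only that these letters are not in those windows. H2-Ab1, Cd74, Ciita, March1 and Rfxap are named without a window.

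Members came mainly from the DN1 start. They were 77 of 10925 cells in WT DN1 (0.705%, exact Clopper-Pearson interval 0.557 to 0.880%) and 104 of 10294 in ΔTE DN1 (1.01%, 0.826 to 1.22%). The DN2a start gave 20 of 19489 cells in WT (0.103%, 0.0627 to 0.158%) and 20 of 11594 in ΔTE (0.173%, 0.105 to 0.266%). DN2b gave 2 of 4968 cells in WT and 0 of 3401 in ΔTE, where the exact interval reaches up to 0.108%. The share was 6.87-fold higher from DN1 than from DN2a in WT (log2 ratio 2.78, 2.06 to 3.57) and 5.86-fold higher in ΔTE (2.55, 1.85 to 3.32). When each cell was thinned to 300 UMIs the order held, with 0.549% and 0.754% in WT and ΔTE DN1 against 0.0474% and 0.0889% in DN2a; the thinning left out between 462 and 4723 shallower cells per library.

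**Figure D1:**
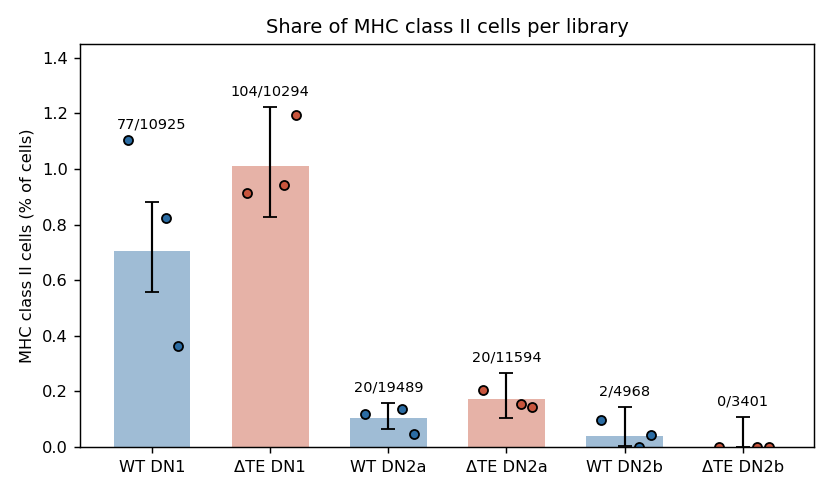
Share of MHC class II cells (percent of filtered cells, y axis) in each of the 6 libraries; bars are the library share, lines the exact 95% interval, points the 3 wells, and numbers the members over all cells. Both DN1 libraries lie above every DN2a and DN2b library, and the wells of WT DN1 (0.365 to 1.10%) and ΔTE DN1 (0.915 to 1.19%) overlap.

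The share in ΔTE over WT was 1.43-fold for DN1 (log2 ratio 0.52, 0.08 to 0.96) and 1.68-fold for DN2a (0.75, -0.22 to 1.72). The DN1 difference depended on which wells were kept. WT DN1 held members at 1.10%, 0.824% and 0.365% in its wells 1, 2 and 3, and ΔTE DN1 at 0.915%, 0.943% and 1.19%, so that the well ranges overlapped. Without well 3 of each library the log2 ratio was -0.045 (-0.57 to 0.48). Wells were numbered by name within each library and are not matched between libraries. This setting left out the lowest WT and the highest ΔTE well, and leaving out well 1 or well 2 instead gave higher ratios. A difference between the DN1 genotypes therefore cannot be told apart from the spread between wells, and the DN2a interval includes 0.

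Class II counts per cell fell off steeply: 60169 kept cells had no UMI of the rule genes, 279 had 1, 88 had 2, 48 had 3, 37 had 4, 21 had 5 and 29 had 6 or more, up to 19 in a single cell. Members held 814 of the 1093 class II UMIs (74.5%); 182 members had at least 2 of the 3 genes and 61 had all 3. The neutrophil limit removed no cell. Cells that should lack class II transcripts give the background. Of 2469 cells with at least 2 UMIs of the T-cell receptor complex genes Cd3d, Cd3e, Cd3g and Cd247, 4 had a class II UMI (0.162%) and none had 2 (exact upper limit 0.149%), at a median of 516 UMIs. Of 2972 stroma-marked cells (at least 4 UMIs of 10 stromal genes, median 553.5 UMIs), 17 had 1 or more (0.572%) and 3 had 2 or more (0.101%). The interval of the latter share (0.0208 to 0.295%) includes the member shares of WT DN2a (0.103%) and ΔTE DN2a (0.173%). At the shares of the other cells of the same libraries, 10.9 Cd3-marked and 16.5 stroma-marked cells would have had 1 or more, and 3.78 and 6.02 would have had 2 or more. The stroma-marked count with 1 or more (17) was thus no lower than in the rest of the same libraries. Both cut-offs and the matching were set after values were seen. Members had a median of 459 UMIs and 20.6% mitochondrial UMIs, other cells 434 and 19.9%. No cell barcode occurred in more than 1 library.

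The rest of the class II pathway was higher in members, taken as a pool, than in other cells. At least 1 UMI of the class II pathway list was found in 74.4% of members and 11.1% of other cells. A UMI of Ciita or Cd74 was found in 80 of the 223 members. For each gene, the member count was set against the count expected from the other cells of the same libraries (a library-matched ratio). Over all 1565 genes with at least 20 counted or expected member UMIs, the 6 genes of the rule left out, 18.1% were at least 2-fold higher and 11.4% at least 2-fold lower in members, and the median log2 ratio was -0.0032. Of the class II pathway list, 8 of 8 genes that could be compared were at least 2-fold higher. The list summed to 3235 CPM (UMIs of the gene or list per 1000000 UMIs of the same cells) in members (2925 to 3568) and 287 in the library-matched other cells, a log2 ratio of 3.49 (3.34 to 3.64).

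Ciita, the class II coactivator, had 29 UMIs in the members of WT DN1, 28 in ΔTE DN1, 5 in WT DN2a, 11 in ΔTE DN2a and 0 in the 2 members of WT DN2b. It reached 724 and 474 CPM in WT and ΔTE DN1 members against 4.20 and 3.60 in other cells, the highest ratio of the genes compared, which leave out the rule genes (log2 7.40, 6.88 to 7.93). Cd74, the invariant chain, had 16, 25, 3, 8 and 0 UMIs in the same order of libraries and the next highest ratio (7.24, 6.61 to 7.87). Thus both genes were high in all 4 libraries with more than 2 members and close to absent from the other cells. The peptide-loading chains H2-DMb2 and H2-DMb1 stood at 6.03 and 5.49; they are close paralogs, and how reads were split between them is uncertain. H2-DMa stood at 3.52, the invariant-chain protease Ctss at 4.60, the ubiquitin ligase March1, which turns surface class II over, at 2.63 and the lysosomal protease Ctsz at 1.81. H2-Oa (8 UMIs) and H2-Ob (6), the modulators of peptide loading, were sparse.

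The costimulation list, which also holds the inhibitory ligands Cd274 and Pdcd1lg2, summed to 50 UMIs where 9 genes were listed, a log2 ratio of 3.67 (3.22 to 4.09). Cd86 gave 14 UMIs, Cd274 (PD-L1) 13, Cd80 10 and Pdcd1lg2 6, while Cd40, Tnfsf4 and Tnfsf9 were at 0. The class I pathway differed far less, with 3421 CPM in members and 2738 in other cells (0.32, 0.18 to 0.46) and 0 of 5 compared genes past 2-fold; B2m, the class I light chain, stood at 0.36.

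**Figure D2:**
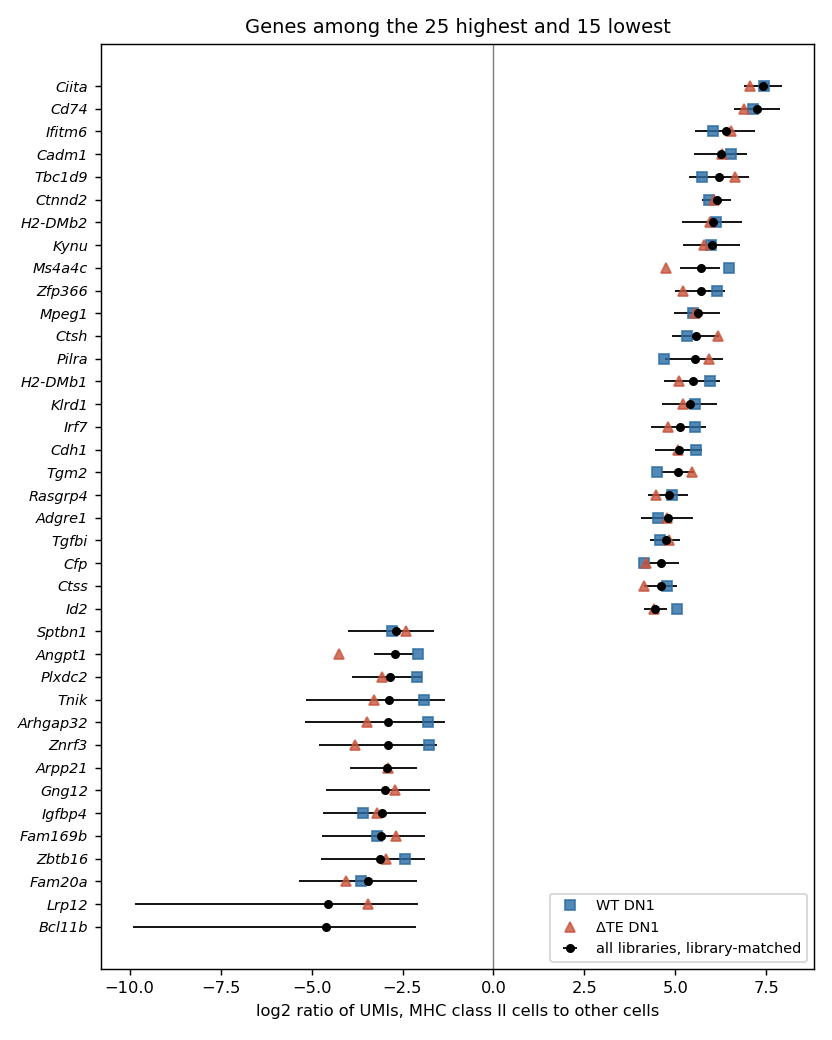
log2 ratio of UMIs in MHC class II cells to other cells (x axis) for genes among the 25 highest and 15 lowest by the naming rule; black points are the library-matched ratio with its 95% counting interval, squares WT DN1 and triangles ΔTE DN1 alone, and a gene with no UMI in a library's members has no marker there. Ciita (7.40) and Cd74 (7.24) lead and Bcl11b (-4.60) is lowest; the naming rule required the same direction in both DN1 libraries.

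Beyond the pathway, the 25 highest genes included phagocyte and dendritic-cell genes: Ifitm6 (6.39), the adhesion gene Cadm1 (6.25), a cDC1 marker, the tryptophan-pathway enzyme Kynu (6.02), Ms4a4c (5.70), Zfp366 (5.69), which encodes DC-SCRIPT, the pore-forming Mpeg1 (5.61), the protease Ctsh (5.57), the myeloid receptor Pilra (5.55) and the macrophage marker Adgre1 (F4/80; 4.81). Tbc1d9 (6.21), Ctnnd2 (6.13), the lectin-like receptor Klrd1 (5.41), the interferon regulator Irf7 (5.12), E-cadherin Cdh1 (5.11), transglutaminase Tgm2 (5.07), Rasgrp4 (4.82), the matrix gene Tgfbi (4.73), properdin Cfp (4.62) and Id2 (4.45) were also among them. Of the 283 higher genes, 281 were higher in both DN1 libraries taken alone.

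Conventional dendritic-cell genes were present, and a few genes carried most of each list. The pan conventional DC list reached 3705 CPM against 824 in other cells (log2 ratio 2.17, 2.03 to 2.30), and Cst3, which encodes cystatin C, gave 338 of its 457 UMIs (3.50, 3.34 to 3.66). Kmo (4.31) and the integrin Itgax (CD11c; 3.70) were higher too, Zbtb46, the transcription factor typical of conventional DCs, had 12 UMIs with 0.176 expected, and Dpp4 was lower at -0.89. For cDC1, the cross-presenting subset, 6 of 7 compared genes were at least 2-fold higher: Cadm1 (6.25), Irf8 (4.01), Naaa (3.91), Itgae (2.91), Wdfy4 (1.89) and Ppt1 (1.35), with Cd24a at -0.11. Xcr1 and Batf3 had 8 UMIs each, and Clec9a and Tlr3 3 each. The cDC2 list (3.18, 2.98 to 3.37) rested on Cd7, a lymphoid and progenitor surface gene, with 173 of 230 UMIs (4.10); Sirpa stood at 3.51, Irf4 and Clec10a had 1 UMI each, and Cd209a and Mgl2 were at 0.

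Monocyte and macrophage genes were higher alongside them. In this list, 8 of 9 compared genes were at least 2-fold up: Adgre1 (4.81), Lgals3 (4.09), the NADPH oxidase subunit Cybb (3.97), the receptor Csf1r (3.81), Ms4a6c (3.75), lysozyme Lyz2 (2.79), Psap (2.59) and Ctsb (1.39), with Ctsd at 0.06. Several defining markers were at 0 in all members: Fcgr1, Cd14, Ms4a7, Ly6c2, F13a1 and Trem2. Among phagocyte receptors and adaptors, Cd300a (4.34) and Tyrobp (2.47) were higher and Fcer1g was not (-0.43, -1.21 to 0.25). The transcription factors Spi1 (PU.1; 3.02), Irf8 (4.01), Id2 (4.45) and Nfkb1 (1.59) were each higher, Zeb2 stood at 0.64 and the plasmacytoid-DC factor Tcf4 at -0.68. Il1b gave 14 UMIs with 0.11 expected, and Ccl2, Ccl3, Ccl4, Tnf, Il6 and Il10 were at 0.

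For other class II-positive lineages, some list genes were present and several markers had no UMI in members. The plasmacytoid DC list had 1 of 3 compared genes at least 2-fold higher, Irf7 (5.12, 20 UMIs), and 6 genes at 0, among them Siglech, Ly6d, Cox6a2 and Ccr9, and the interval of that list's ratio included 0 (0.18, -0.14 to 0.49). The B-cell list was higher at 1.07 (0.35 to 1.70) on 20 UMIs, of which Cd22 gave 12, while Cd79a, Ms4a1 and Pax5 were at 0. Mature DC genes summed to 51 UMIs (1.04, 0.61 to 1.43), of which Tmem123 gave 19, Relb 13, Ccr7 and Il4i1 5 each and Ccl17 and Cacnb3 0. Interferon-response genes stood at 1.04 (0.68 to 1.37), with 17 of 74 UMIs from Ifi27l2a. The G2/M list was higher at 0.45 (0.31 to 0.58) and the S-phase list was not (-0.02, -0.24 to 0.19); the cycle genes Mki67 (69 members with a UMI) and Top2a (79) were widely detected.

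**Figure D3:**
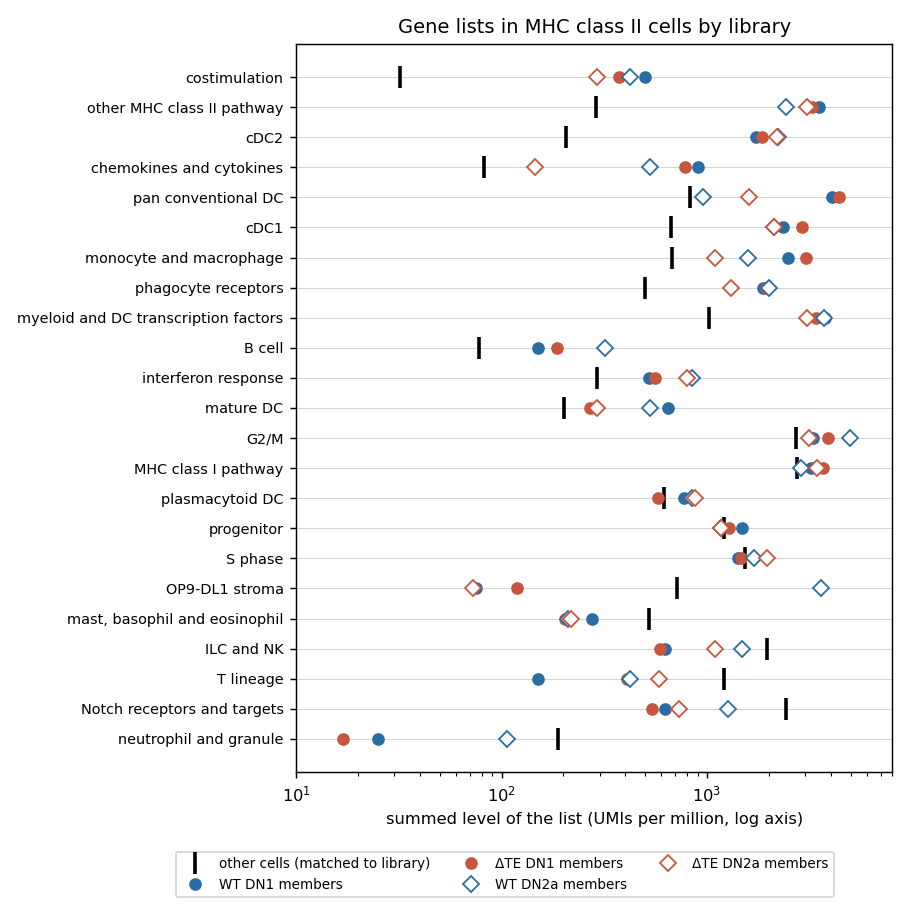
Summed level of each gene list (CPM, log axis) in the MHC class II cells of the 4 libraries with at least 20 members (circles DN1, diamonds DN2a; blue WT, red ΔTE) and in the library-matched other cells (bars); a list at 0 has no marker. Class II pathway, costimulation and cDC2 levels lie to the right of the bar in all 4 libraries, pan conventional DC levels are 4072 and 4399 from DN1 but 952 and 1601 from DN2a, and the stroma list stands apart in WT DN2a (3598).

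The T-lineage program was low in members. Bcl11b, the commitment factor whose enhancer is deleted in ΔTE, had 1 UMI in all members, from WT DN2a, where 24.3 were expected (-4.60, -9.90 to -2.12). Zbtb16, which encodes the innate lymphoid factor PLZF, had 5 UMIs where 43.2 were expected (-3.11, -4.73 to -1.89): 2 in WT DN1, 3 in ΔTE DN1 and 0 elsewhere. Tcf7 (-1.60) and Thy1 (-1.17) were at least 2-fold lower, and Lck had 9 UMIs where 17.2 were expected. With Bcl11b, 3 of 3 compared T-lineage genes were lower. Cd3d, Cd3e, Cd3g and Ptcra were at 0. Of these, only Cd3g had a ratio interval below 0 (upper limit -1.44). That of Cd3d reached 1.84, and fewer than 1 UMI was expected for each of Cd3e and Ptcra. The Notch-dependent Il2ra (CD25; -2.29) and Notch1 (-2.03) were lower, as were Gzma (-2.03), Gzmb (-1.65) and Nkg7 (-2.51) of the ILC and NK list, whose Klrd1 went the other way. Lrp12 (-4.56), Fam20a (-3.46), Fam169b (-3.09), Igfbp4 (-3.07), Gng12 (-2.98), Arpp21 (-2.94), Znrf3 (-2.91), Arhgap32 (-2.89), Tnik (-2.88), Plxdc2 (-2.84), Angpt1 (-2.70) and Sptbn1 (-2.68) were among the other lowest genes. Progenitor genes split: Bcl11a (1.12) and Mef2c (1.55) were higher, Kit (-1.38) and Erg (-2.50) lower.

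Set against the other rare myeloid cells, members had little granule signal. Cells with at least 2 UMIs of the neutrophil genes and fewer than 2 class II UMIs numbered 91 (65 in WT DN1 and 25 in ΔTE DN1). A further 282 cells had at least 2 UMIs of the granulocyte-monocyte progenitor genes Mpo and Prtn3. These were held to the same class II limit and to at most 1 neutrophil UMI. The neutrophil and granule list, which overlaps the rules of those cells, was at 24.3 CPM in members, 4278 in the neutrophil-like and 4813 in the progenitor-like cells. Ciita, Cd74 and Cadm1 had 0 UMIs in both of the latter, whose rules left out class II cells. Cst3 was at 2740.3 in members against 180.5 and 190.7, and Id2 at 778 against 72.2 and 14.7. The interval of the monocyte and macrophage list in members (2521, 2249 to 2818) overlapped that in neutrophil-like cells (2707, 2292 to 3177), in which Lyz2 reached 848 CPM against 243 in members.

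Among DN1-start class II cells, the pan conventional DC, cDC1 and monocyte lists were highest in the cells with the most class II UMIs. The cDC2 list was not. Levels are given within the DN1 libraries, a choice made after values were seen, because the share of DN1-start cells differed between the classes: 34.7% of cells with 0 class II UMIs, 60.9% with 1, 75% with 2, 81.2% with 3 or 4 and 92% with 5 or more. In this order, the pan conventional DC list ran 788, 1639, 2411, 3032 and 7846 CPM over both DN1 libraries. The cDC1 list ran 655, 995, 1608, 1866 and 4891, and the pathway list 289.8, 1727, 3119, 2799 and 4314. In WT DN1 alone, members with 3 or 4 UMIs lay below those with 2 for the pan conventional DC (2246 and 2583) and cDC1 lists (1061 and 1697), and those with 5 or more stood at 8805 and 5168. Cells just outside the rule, with 1 class II UMI, lay between members and cells with none for these 3 lists. The monocyte and macrophage list ran 637, 2470, 2604, 2203 and 3838, and 5 or more was its highest class in each DN1 library, with overlapping intervals. In ΔTE DN1 it stood at 3738 (2920 to 4716) there, against 3304 (2509 to 4272) at 2. In WT DN1 it stood at 4020 (2897 to 5433) there, against 2720 (2206 to 3318) at 1. The cDC2 list ran 199.5, 1148, 2347, 1892 and 1121, and T-lineage genes 997, 415, 386, 259 and 272. Cd7 gave 60 of the 73 cDC2 list UMIs in members with 2 class II UMIs and 16 of 33 with 5 or more. The fall of the cDC2 list between these classes was thus that of Cd7. Cst3 gave 45 of the 75 pan conventional DC list UMIs in members with 2 class II UMIs and 193 of 231 with 5 or more. The rise of that list between these classes was thus largely that of Cst3, and the list without Cst3 was not tested. In the 46 DN1 members with 5 or more class II UMIs, Cst3 stood at 6555 CPM against 1447 in the 66 with 2. Irf8 and Naaa had 18 UMIs each against 1, Cadm1 18 against 5, and Cd7 16 against 60. Id2 (815 against 900.2 CPM) and Csf1r (9 against 14 UMIs) did not stand higher. The classes were cut from the rule's own genes and are not cell types, and members with 5 or more class II UMIs were deeper than those with 2 (median 581.5 against 408.5 UMIs).

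**Figure D4:**
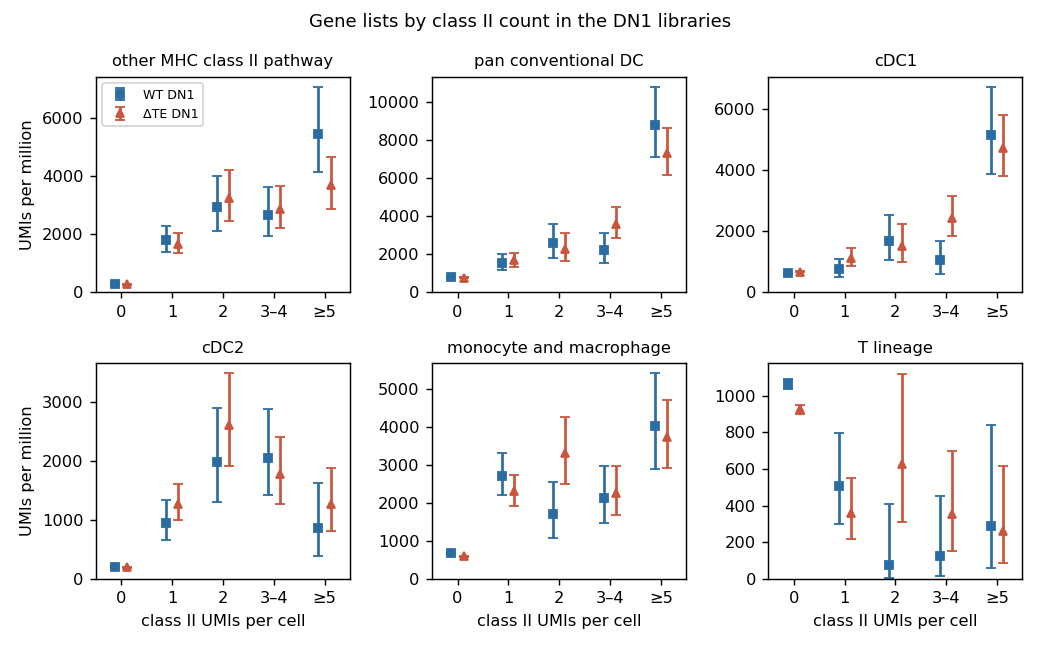
Level of 6 gene lists (CPM, y axis) in DN1-start cells grouped by their UMIs of H2-Aa, H2-Ab1 and H2-Eb1 (x axis; 2 or more are members), with exact Poisson 95% intervals; squares are WT DN1 and triangles ΔTE DN1. At 5 or more UMIs, pan conventional DC levels are 8805 in WT and 7319 in ΔTE, and monocyte and macrophage levels 4020 and 3738. Both lists have their highest level there in both libraries, but the monocyte interval overlaps that of a lower class in each library. Cst3 gives 79 of the 92 pan conventional DC UMIs there in WT and 114 of 139 in ΔTE. The cDC2 list is highest at 2 UMIs in ΔTE (2621) and at 3 or 4 in WT (2059).

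Some members held both dendritic and monocyte transcripts, but monocyte genes were about as frequent in members without a cDC gene as in those with one. At least 1 UMI of a set of cDC genes (Zbtb46, Itgax, Kmo, Flt3, Btla, Xcr1, Clec9a, Batf3, Cadm1, Tlr3) was found in 82 of 223 members, and of a set of monocyte genes (Csf1r, Adgre1, Lyz2, Ms4a6c, Cybb, Cd68) in 90. Both were found in 33 members and neither in 84. Monocyte genes were detected in 40.2% of members with a cDC gene and 40.4% of those without (median depth 519.5 and 416 UMIs). The parts of that set went opposite ways: 34.9% against 42.5% for Zbtb46, Itgax, Kmo, Flt3 and Btla, and 53.3% against 38.3% for Xcr1, Clec9a, Batf3, Cadm1 and Tlr3. At least 1 T-lineage UMI was found in 28 members and at least 2 in 7, and at least 1 stroma UMI in 13 and at least 2 in 5. The cDC and monocyte sets were drawn up after values were seen, and at a median of 459 UMIs a cell without a UMI may still express the gene.

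DN2a-start members had class II pathway transcripts at a level close to that of DN1-start members but few Cst3 UMIs and few or none of several other dendritic and monocyte genes; the cDC1 and cDC2 lists as a whole had intervals that include 0. The 40 DN2a members held 23195 UMIs and the 181 DN1 members 99130; they were compared within genotype, a comparison added after values were seen. Over 1209 genes with at least 20 UMIs, 12.6% were at least 2-fold higher and 6.62% at least 2-fold lower in DN1-start members, with a median log2 ratio of -0.0418. The pan conventional DC list was 1.67 higher from DN1 (1.15 to 2.20) and the monocyte and macrophage list 1.12 higher (0.58 to 1.66), whereas the cDC1 list stood at 0.34 (-0.10 to 0.78; -0.46, -0.94 to 0.03, among members with 2 to 4 class II UMIs) and the cDC2 list at -0.28 (-0.73 to 0.16). The monocyte list was 0.64 (-0.14 to 1.42) in WT alone and 0.56 (-0.12 to 1.23) without well 1 of each library, intervals that include 0, and 1.72 with members of 2 or more T-lineage or stroma UMIs left out. Of compared genes, 6 of 9 in the monocyte list and 4 of 7 in the cDC1 list were at least 2-fold higher from DN1 and 1 cDC1 gene, Cd24a, was lower (-1.18, -2.35 to -0.01), against 2 of 8 in the class II pathway, namely Ctsz (2.36, 0.32 to 4.40) and H2-DMb1 (2.15, -0.75 to 5.05). The pathway list stood at 0.26 (-0.13 to 0.64). In the pan conventional DC list, 1 of 4 compared genes, Cst3, was at least 2-fold higher from DN1. Cst3 gave 321 of that list's 423 UMIs from DN1 and 14 of its 31 from DN2a. Kmo (0.90), Itgax (0.43) and Dpp4 (-0.51) had intervals that include 0. The difference in this list thus rested largely on Cst3, and the list without Cst3 was not tested. With 1 library for each start and genotype, start and library cannot be told apart.

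Cst3 had 125 and 196 UMIs in WT and ΔTE DN1 members and 1 and 13 in the DN2a members, a log2 ratio of 2.42 (1.65 to 3.19). In WT DN2a members this was 106 CPM (2.68 to 589.5), an interval that includes the 340.4 of the other cells of that library, whereas ΔTE DN2a members stood at 946 (503.6 to 1617) against 259.9. Csf1r had 12 and 22 UMIs against 1 and 0 (2.99, 0.12 to 5.87), Irf8 9 and 25 against 0 and 1 (2.99, 0.12 to 5.86), and Tgfbi 23 and 36 against 0 and 2 (2.79, 0.75 to 4.82). The intervals of Csf1r and Irf8 included 0 in every alternative that gave them a value, and that of Tgfbi did without well 1 of each library. Psap (38 UMIs from DN1), Lyz2 (30), Cadm1 (28) and Naaa (22) had no UMI from DN2a. With 3 counts over the DN2a members as the floor, the DN1 level predicts 2.96, 2.34, 2.18 and 1.71 times that floor. These values leave out the counting error of the DN1 UMIs.

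For other genes the interval of the ratio included 0. Ciita had 16 UMIs from DN2a where the DN1 level predicts 13.4 (log2 ratio -0.26, -1.06 to 0.54), Cd74 11 where it predicts 9.59, Id2 18 where it predicts 18.3, Cd7 42 where it predicts 30.6 and Wdfy4 29 where it predicts 21.5. Unlike these, Nfkb1 (-0.63, -1.24 to -0.02) and Il2ra (-1.01, -1.86 to -0.15) were lower in DN1-start members, as was the ILC and NK list (-1.05, -1.69 to -0.41; -0.51, -1.42 to 0.39 without well 2 of each library). Beside this, the stroma list had 34 UMIs in WT DN2a members (3598 CPM, against 2592 in the other cells of that library), and their part in the result was not tested. The same members had a median of 8.75% mitochondrial UMIs, against 13.3% in the other cells. The stroma UMIs came from 4 of its 20 members, with 16, 10 and 6 in the highest, whereas the members of WT DN1, ΔTE DN1 and ΔTE DN2a had 3, 7 and 1. With members holding 2 or more T-lineage or stroma UMIs left out, the pan conventional DC ratio was 1.53 and that of Cst3 2.33. Restricted to members with 2 to 4 class II UMIs, they were 1.40 and 2.19, in WT alone 2.10 and 4.88, and in ΔTE alone 1.46 and 1.81. Without well 1 of each library, which holds 10 of the 20 ΔTE DN2a members, they were 2.34 and 4.00. Both ratios count the Cst3 UMIs and are not separate results.

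**Figure D5:**
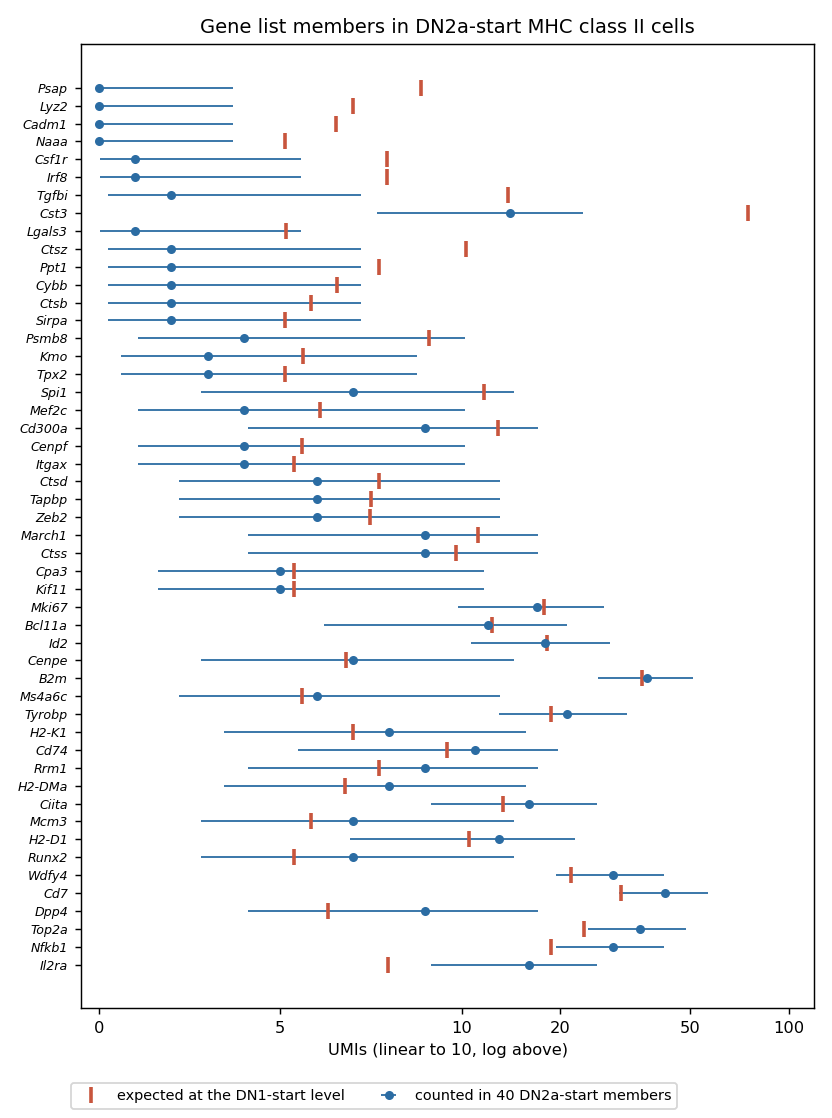
UMIs counted in the 40 DN2a-start MHC class II cells (points, exact Poisson 95% interval) and expected from the DN1-start level of the same genotypes (red bars) for list genes with at least 5 expected UMIs; the x axis is linear to 10 and logarithmic above. Psap, Lyz2, Cadm1 and Naaa are at 0 and Cst3 is at 14 of 75.1 expected, while the intervals of Ciita, Cd74 and Id2 include their expected counts.

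Between genotypes, few genes of the class II cells differed by 2-fold, and no gene of the class II, conventional DC or monocyte lists with at least 20 UMIs was among them. Tcf4, of the plasmacytoid DC and transcription factor lists, stood lower in ΔTE with an interval that includes 0 (8 and 13 UMIs, -1.26, -2.53 to 0.01), and Psmb8 of the class I list was higher (33 and 10, 1.16, 0.14 to 2.18). Matched on start, 5.13% of 1209 genes with at least 20 member UMIs were at least 2-fold higher in ΔTE and 3.56% at least 2-fold lower; intervals of 80 genes left out 0. Ciita (-0.36, -1.02 to 0.30), Cd74 (0.24, -0.58 to 1.05), Cst3 (0.17, -0.15 to 0.49), Id2 (-0.20, -0.78 to 0.39) and Cd7 (0.00, -0.44 to 0.44) had intervals that include 0, as did the class II pathway list (-0.04, -0.33 to 0.25), the pan conventional DC list (0.15, -0.12 to 0.43) and the monocyte list (0.21, -0.12 to 0.55). The mature DC list was lower in ΔTE (-1.19, -2.0 to -0.38), with 26 UMIs in WT DN1, 16 in ΔTE DN1, 5 in WT DN2a and 4 in ΔTE DN2a. T-lineage UMIs were higher in ΔTE (1.12, 0.10 to 2.15), with 6 in WT DN1 and 24 in ΔTE DN1. The stroma list stood at -2.76, set by the WT DN2a members described above.

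The most different genes by the naming rule rested on few UMIs. Lars2, a mitochondrial leucyl-tRNA synthetase, led with 45 UMIs in ΔTE and 4 in WT members of the DN1 and DN2a starts (2.95, 1.47 to 4.42). Of these, 38 came from the 10 members of well 1 of ΔTE DN2a, where other cells also had 1866 CPM against 93.3 to 228 in all other wells; without well 1 the ratio was -0.26. Gna13 (18 and 2 UMIs), Naa15 (25 and 3), the lamin B receptor Lbr (22 and 3), 5031439G07Rik (27 and 4), Atp11b (19 and 3), Raly (18 and 3) and Fam111a (18 and 3) followed, at log2 ratios of 2.03 to 2.61. Lower in ΔTE were Ikzf2, which encodes the zinc-finger factor Helios (5 and 15 UMIs, -2.14), the condensin subunit Ncaph (7 and 17, -1.84), Lrch1 (10 and 22, -1.70), P2ry14 (7 and 14), Dennd4a (10 and 20), Cacnb2 (8 and 16), Ubxn4 (9 and 18) and Sash1 (7 and 14). None of these genes belongs to the class II, dendritic or monocyte lists, and with 1 library per genotype and start the differences have no replicate check.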

How the data were processed

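Per the labels, nuclear RNA of fixed cells was profiled by sci-RNA-seq3, and the submitters' processing notes name the mm9 genome build; the aligner and counter are not given in the sources used here. The deposited matrices hold raw UMI counts per gene and barcode (28048 genes, 6 libraries, 173113 to 208535 barcodes each). Raw counts were filtered as stated, leaving 3401 to 19489 cells per library at medians of 386 to 485 UMIs and 13.3 to 23.9% mitochondrial UMIs; no doublet caller was run. Counts were summed over members and over other cells of each library. Ratios carry conditional exact or Mantel-Haenszel intervals, and levels exact Poisson intervals; intervals cover counting error only. No test was made, since each condition is 1 library and the wells are treated as technical. Scripts were tested on simulated data. Members and gene lists were chosen with earlier results of these data known. Named genes were list genes with at least 20 member UMIs, the 25 highest and 15 lowest member ratios in the same direction in both libraries with at least 50 members, the 8 highest and 8 lowest ΔTE to WT ratios in the same direction in each start with at least 20 members per genotype, and Bcl11b and Zbtb16; other list genes named were chosen after their values were seen, as ratios where at least 20 UMIs were expected and as UMIs otherwise. A few genes that met this rule or belong to the lists are not reported here. Alternatives varied the cell filters, membership, depth, scaling (edgeR 4.0.16 TMM factors in R 4.3.3), gene minimum, wells and libraries. Analyses used Python 3.11.15, numpy 2.4.6, pandas 2.3.3 and scipy 1.17.1.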

Additional observations from a re-analysis of the deposited data

Results flagged for a closer look

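Stroma genes among class II cells went opposite ways in ΔTE against WT from the DN1 start (log2 ratio 0.66, -1.47 to 3.24) and the DN2a start (-5.63, -10.97 to -3.05), with intervals that did not overlap; each rests on 1 library per group, and the difference was not tested. Among the 23136 barcodes left out for over 30% mitochondrial UMIs, 27 met the class II rule (0.117%), 11 of them in WT DN1 and 10 in ΔTE DN1; they lie outside the comparisons and were not analysed further.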

How the results depend on the processing

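Across 33 settings, 1840 of 1952 recomputed values stayed within the counting interval of the reported value, or within 1.5 times of a reported count, and 108 moved further. With at least 1 class II UMI the DN1 to DN2a log2 ratio of the share was 1.85 in WT and 1.82 in ΔTE. With at least 3, 185 genes were 2-fold higher and 115 lower in members, and 36 higher in ΔTE members. With a gene minimum of 10 UMIs the members' counts were 577 and 437, and with 50 they were 62 and 41, since other numbers of genes were compared. From DN1 alone 28 genes were lower in ΔTE members. Leaving out wells gave ΔTE to WT ratios of the DN1 share from -0.045 to 0.94, of the DN2a share from 0.49 to 1.15, DN1 to DN2a ratios from 2.54 to 3.00 in WT and 2.35 to 2.83 in ΔTE, and 29 to 42 genes higher and 22 to 28 lower in ΔTE members. Leaving out libraries gave 113 to 283 genes higher and 79 to 175 lower in members, with 113 and 79 without ΔTE DN1 and 170 and 109 without WT DN1, since fewer members leave fewer genes over the UMI minimum. Lars2 ran from -0.26 without well 1, where its direction changed, to 3.63. Direction also changed for the stroma list in ΔTE against WT from DN1 alone (0.66) and, for DN1 against DN2a members, with stroma-marked members left out (0.52) and in ΔTE alone (0.70). The DN1 against DN2a settings were chosen after seeing the data. No paired analysis was possible because each condition has 1 library. With 2 to 20 members in the DN2 libraries, depth limits most single genes there.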
